A study of Homo sapiens with 6 samples.

Results

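Ribosome footprints were followed over 10 genes that encode laminin chains and collagen IV and VI chains, in WPMY-1, a human myofibroblast line derived from prostate stroma and made immortal with a viral antigen. The genes are LAMA4 (ENSG00000112769), LAMA5 (ENSG00000130702), LAMB1 (ENSG00000091136), LAMB2 (ENSG00000172037), LAMC1 (ENSG00000135862), COL4A1 (ENSG00000187498), COL4A2 (ENSG00000134871), COL6A1 (ENSG00000142156), COL6A2 (ENSG00000142173) and COL6A3 (ENSG00000163359). They were chosen by gene family through a fixed list of Ensembl IDs, and all 10 were found among the 62492 features of the count table. The list was drawn up with the footprint values of this comparison in view, so the changes below are a description and a gene that passed the test lends no independent support. The sh61A group is 3 libraries of cells carrying a short hairpin RNA against TRMT61A, labelled as a knockdown. The shcontrol group is 3 libraries of cells carrying a control hairpin, labelled wild type for TRMT61A and named for a vector in the count table. TRMT61A is the catalytic subunit of the enzyme that places 1-methyladenosine in tRNA, and the series title ties that mark to the translation of TGF-beta pathway genes in benign prostatic hyperplasia. Both groups share the WPMY-1 background and the presence of a hairpin, and the labels give no time after hairpin delivery, no number of clones and nothing on whether the libraries of a group are separate cultures. A p-value here measures only how these libraries vary, and that variation may be technical.

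Laminins are cross-shaped secreted trimers of an alpha, a beta and a gamma chain, and they form the first layer of a basement membrane on the cell surface. The alpha chain carries most of the sites that bind integrins and dystroglycan, and it joins a beta and a gamma chain that have already paired inside the cell. Collagen IV makes the covalent network of the basement membrane, built in most tissues from trimers of the COL4A1 and COL4A2 chains. Collagen VI is a beaded filament collagen of the matrix next to basement membranes, assembled from the COL6A1, COL6A2 and COL6A3 chains, and it is made largely by stromal cells.

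Total counts were 12704354 to 17752247 in the sh61A libraries and 6771455 to 8008896 in the shcontrol libraries. The 10 genes together took 0.102% to 0.127% of the counts in sh61A and 0.0866% to 0.146% in shcontrol. Levels are given as CPM, a library's count scaled to its total after trimmed-mean (TMM) adjustment. They are not divided by gene length, so a level is compared between libraries and not between genes. A footprint count moves with the amount of mRNA as well as with the ribosomes on it, and the 2 were not separated here. The level of TRMT61A itself and markers of the cell type were not analysed here.

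Of the 10 genes, 3 were higher in sh61A (LAMA4, COL4A1 and COL6A3), 2 were lower (LAMA5 and LAMC1), and 5 did not pass the test (LAMB1, LAMB2, COL4A2, COL6A1 and COL6A2). The test was edgeR's quasi-likelihood test at a Benjamini-Hochberg adjusted p under 0.05 over all 11653 features tested. Over all those features 3.12% passed, 1.48% higher and 1.64% lower in sh61A, and nothing is read from the difference between these shares and the count of 5, because the list was chosen with the values known. The median log2 fold change was 0.38 over the 10 genes and -0.0047 over all tested features. Each family held both genes that passed and genes that did not pass: 3 of the 5 laminin genes passed, 1 of the 2 collagen IV genes and 1 of the 3 collagen VI genes. The libraries of the groups did not overlap in 8 of the 10 genes, 6 with sh61A above and 2 with sh61A below. Over all tested features this share was 24.8% (12.2% above and 12.7% below). Nothing is read from this difference either, because the list was chosen with the values known. The tested features were also not matched to the 10 genes for count level.

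**Figure D1:**
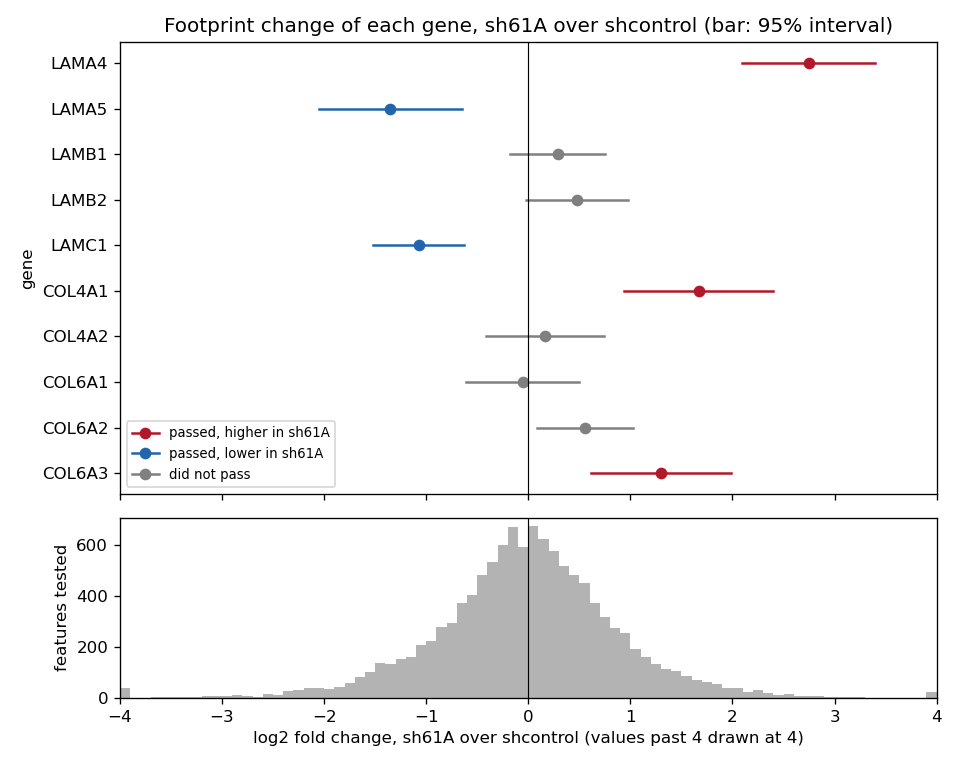
Log2 fold change of the footprints of each gene, sh61A over shcontrol, with its 95% interval from the fit (upper panel), above a histogram of the log2 fold changes of all 11653 tested features (lower panel). LAMA4 at 2.75 lies farthest to the right and LAMA5 at -1.35 farthest to the left, while the intervals of LAMB1, LAMB2, COL4A2 and COL6A1 span 0.

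The laminin alpha chains on the list, LAMA4 and LAMA5, moved in opposite directions. LAMA4 encodes the α4 chain, which is known from vascular and other mesenchymal basement membranes. Its level was 40.3, 58.5 and 43.0 CPM in sh61A libraries 1 to 3, against 6.78, 6.38 and 7.94 CPM in shcontrol libraries 1 to 3, from 613, 690 and 531 counts against 50, 52 and 70 counts. Every sh61A library lay far above every shcontrol library. The fold change was 6.71, or 2.75 ± 0.30 on the log2 scale (SE, 3 libraries a group), with an adjusted p of 0.0016 in edgeR, and this change stood above 99.5% of all tested features.

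LAMA5 encodes the α5 chain, a broad component of mature basement membranes, especially those of epithelia. Its level was 10.7, 24.6 and 18.0 CPM in sh61A libraries 1 to 3, against 42.6, 41.2 and 52.1 CPM in shcontrol libraries 1 to 3. The highest sh61A library, library 2, was still below the lowest shcontrol library, and the sh61A libraries differed among themselves by 2.29 times. Raw counts were lower too, at 163, 290 and 222 in sh61A against 314, 336 and 459 in shcontrol, although the sh61A libraries were deeper. The log2 fold change was -1.35 ± 0.32 (SE, 3 libraries a group), so that shcontrol had 2.55 times the sh61A level, with an adjusted p of 0.0442 from edgeR. This is close to the threshold, and LAMA5 no longer passed when any of the 6 libraries was left out, at log2 fold changes of -1.66 to -1.09.

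**Figure D2:**
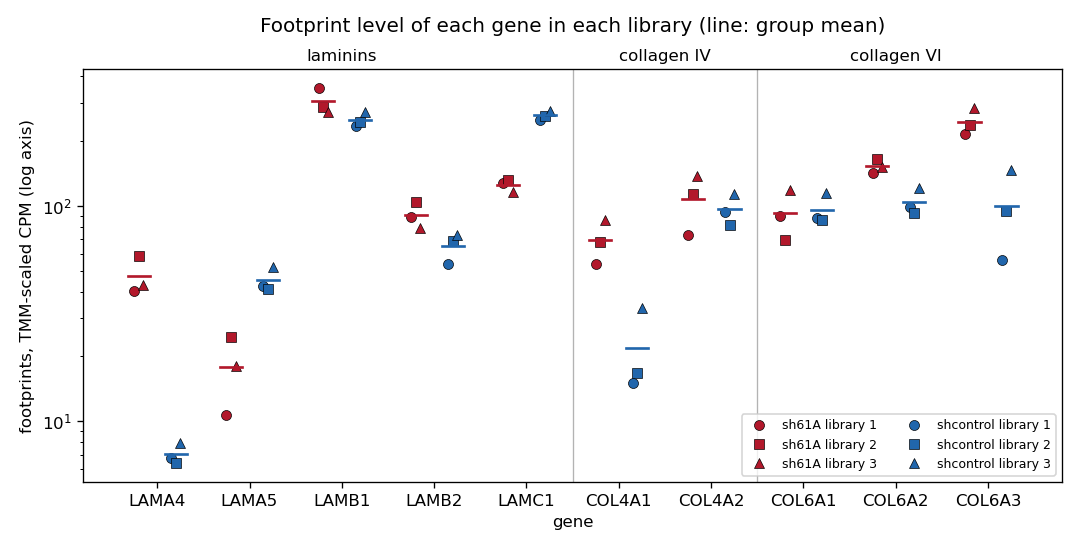
Footprint level of each gene in each library, in TMM-scaled CPM on a log axis, with sh61A in red left of shcontrol in blue, a symbol for each library number and a line at each group mean. LAMA4 is near 47.3 CPM in sh61A and 7.03 CPM in shcontrol, and in all 10 genes the triangle of shcontrol library 3 is the highest of its group.

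The beta chains on the list showed no change that passed the test. LAMB1 encodes β1, the beta chain of most early and mesenchymal laminins. It had 353, 289 and 274 CPM in sh61A libraries 1 to 3, against 234, 244 and 272 CPM in shcontrol libraries 1 to 3, a log2 fold change of 0.29 ± 0.21 (SE) with a 95% interval of -0.18 to 0.75. The lowest sh61A library and the highest shcontrol library were almost level. LAMB2 encodes β2, the beta chain of the neuromuscular junction, the kidney filter and smooth muscle. It had 89.2, 104 and 79.2 CPM in sh61A, against 53.8, 68.7 and 73.1 CPM in shcontrol, a log2 fold change of 0.48 ± 0.23 (SE) with an interval of -0.024 to 0.98. An increase of nearly 2-fold in LAMB2 lies within that interval, so a failed test does not show that the levels were alike.

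The gamma chain on the list was lower in sh61A. LAMC1 encodes γ1, the gamma chain shared by most laminins. Its level was 128, 131 and 116 CPM in sh61A libraries 1 to 3, against 252, 262 and 276 CPM in shcontrol libraries 1 to 3. Both groups were tight, with coefficients of variation of 6.46% in sh61A and 4.57% in shcontrol, and the groups lay far apart. The log2 fold change was -1.07 ± 0.20 (SE, 3 libraries a group), with an adjusted p of 0.0171 in edgeR, and shcontrol had 2.10 times the sh61A level. Leaving out 1 library left the log2 fold change between -1.11 and -1.01, but LAMC1 then passed in 1 of the 6 fits, the one without shcontrol library 1.

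Ratios between chains in the same library do not depend on how libraries are scaled to each other. They are ratios of counts, not divided by length, so only their difference between groups is read, and that difference is given without a test. The ratio of LAMA4 to LAMA5 counts was 3.76, 2.38 and 2.39 in sh61A libraries 1 to 3, against 0.159, 0.155 and 0.153 in shcontrol libraries 1 to 3. The shcontrol libraries were nearly identical in this ratio, and the difference came to 4.16 on the log2 scale, which is 17.9-fold, against a pooled SD of 0.27. It follows from the log2 fold changes of LAMA4 (2.75) and LAMA5 (-1.35) given above, so it is not a separate result. LAMB1 to LAMC1 was 2.76, 2.20 and 2.36 in sh61A and 0.932, 0.931 and 0.988 in shcontrol, a 2.56-fold higher ratio in sh61A. LAMB2 to LAMC1 was 0.696, 0.792 and 0.682 in sh61A and 0.214, 0.262 and 0.265 in shcontrol, a 2.93-fold higher ratio in sh61A. Both ratios thus shifted by more than the spread between libraries. Each has LAMC1 as its denominator, at a log2 fold change of -1.07, so they are not separate results. LAMB1 at 0.29 and LAMB2 at 0.48 did not pass the test themselves. The beta chains did not separate from each other. LAMB2 to LAMB1 was 0.252 to 0.360 in sh61A and 0.230 to 0.281 in shcontrol, and the groups overlapped. Summed over the 5 laminin genes, the level was 587 ± 49.2 CPM in sh61A and 631 ± 46.5 CPM in shcontrol (SD, n = 3 each), with overlap. LAMB1 (means of 306 CPM in sh61A and 250 CPM in shcontrol) and LAMC1 (125 and 263 CPM) weigh most in this sum. It is not divided by length, so nothing is read from its small difference between the groups.

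**Figure D3:**
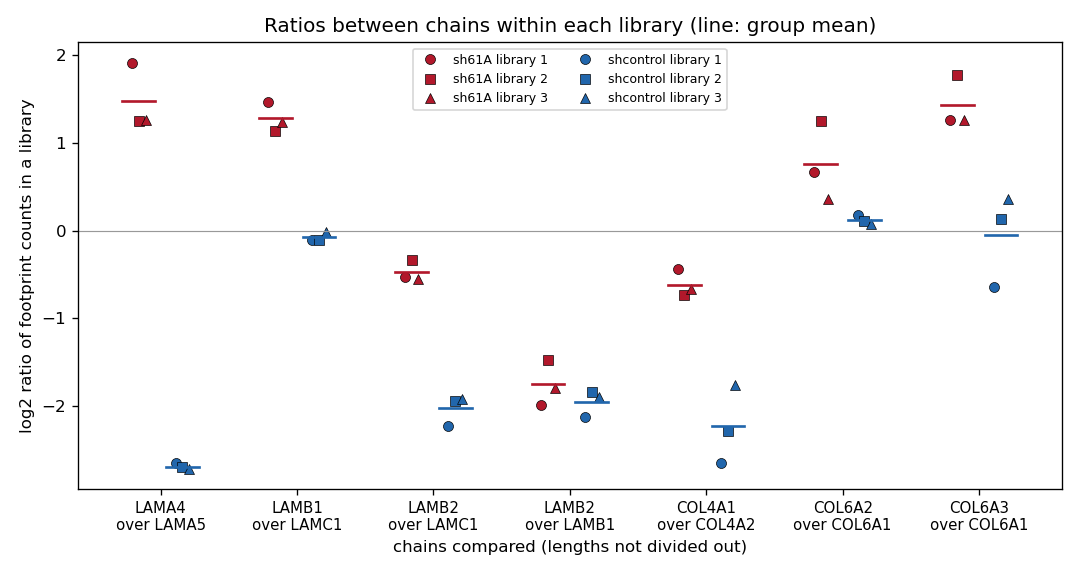
Log2 ratio of the footprint counts of pairs of chains within each library, sh61A in red left of shcontrol in blue, with a symbol for each library number and a line at each group mean. The groups lie apart in 6 of the 7 ratios drawn, by 4.16 for LAMA4 over LAMA5, and overlap in LAMB2 over LAMB1. Several ratios share a gene, and ratios of genes outside the list were not computed.

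COL4A1 and COL4A2 lie head to head on chromosome 13 and are transcribed away from each other, so the stretch between their start sites serves as promoter for both. It is printed here because the footprints of these neighbours differed unequally between the groups. The stretch is chr13:110307158-110307283 on the plus strand, the strand of COL4A2, from RefSeq on GRCh38.p14. It is 126 bases long with 80.2% G and C, and capitals mark 1 CCAAT and 1 GGGCGG (a GC box, the kind of sequence Sp1 binds), in that order.

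COL4A1/COL4A2: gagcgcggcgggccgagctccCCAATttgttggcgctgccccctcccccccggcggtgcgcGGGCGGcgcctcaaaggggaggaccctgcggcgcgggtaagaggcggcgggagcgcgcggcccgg

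COL4A1, the α1 chain of collagen IV, was higher in sh61A. Its level was 54.0, 68.2 and 86.3 CPM in sh61A libraries 1 to 3, against 15.1, 16.8 and 33.6 CPM in shcontrol libraries 1 to 3. All sh61A libraries lay above all shcontrol libraries, but shcontrol library 3 had 2.23 times the level of library 1. The fold change was 3.18, or 1.67 ± 0.34 on the log2 scale (SE, 3 libraries a group), with an adjusted p of 0.0214 in edgeR. Without shcontrol library 3 it was 2.12 and passed, and it also passed without sh61A library 1. In the other 4 fits that left out a library it ran from 1.46 to 1.68 and did not pass.

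COL4A2, the α2 chain, did not pass the test. It had 73.3, 114 and 137 CPM in sh61A libraries 1 to 3, against 94.1, 81.7 and 114 CPM in shcontrol libraries 1 to 3, and the groups overlapped. The log2 fold change was 0.16 ± 0.27 (SE) with a 95% interval of -0.41 to 0.74. The ratio of COL4A1 to COL4A2 counts was 0.736, 0.599 and 0.630 in sh61A, against 0.160, 0.206 and 0.296 in shcontrol. This ratio was thus higher in every sh61A library than in any shcontrol library, by 3.06-fold or 1.61 on the log2 scale, against a pooled SD of 0.33. It follows from the changes of COL4A1 and COL4A2 given above and is likewise not a separate result.

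Among the collagen VI genes, COL6A3 differed most. COL6A3 encodes the long α3 chain, whose cleaved C-terminal fragment is known as endotrophin. The 250 bases before its start are shown for contrast with those of LAMA5, the most GC-rich of the windows, since COL6A3 was higher and LAMA5 lower in sh61A. They are chr2:237414165-237414414 for COL6A3 and chr20:62367313-62367562 for LAMA5, each on the minus strand, from RefSeq on GRCh38.p14. Capitals mark CAGAC, a short sequence bound by SMAD proteins, and GGGCGG, each on either strand.

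COL6A3: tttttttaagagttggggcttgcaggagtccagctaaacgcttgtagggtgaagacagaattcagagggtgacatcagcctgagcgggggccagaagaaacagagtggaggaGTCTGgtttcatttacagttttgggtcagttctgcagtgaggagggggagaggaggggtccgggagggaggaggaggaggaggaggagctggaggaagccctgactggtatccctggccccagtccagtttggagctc
LAMA5: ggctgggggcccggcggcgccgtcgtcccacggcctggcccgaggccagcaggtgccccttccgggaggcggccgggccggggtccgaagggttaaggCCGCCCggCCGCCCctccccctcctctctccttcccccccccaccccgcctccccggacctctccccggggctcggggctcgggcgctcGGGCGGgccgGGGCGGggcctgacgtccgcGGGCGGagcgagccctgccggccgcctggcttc

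The COL6A3 stretch holds 1 CAGAC (read as its reverse complement, GTCTG) with no GGGCGG and has 56.0% G and C, and the LAMA5 stretch holds 5 GGGCGG with no CAGAC and has 82.8% G and C. Windows of 250 bases before to 50 after the start were available for 9 of the 10 genes. In this longer window LAMA5 did hold 1 CAGAC, as did LAMA4, LAMC1 and COL6A3. LAMB2 held 2, and LAMB1, COL4A1, COL4A2 and COL6A2 held 0, so CAGAC did not divide higher from lower genes. CAGAC was in 5 of the 9 windows and in 45.3% of all 35114 windows of that length, GGGCGG in 7 of the 9 and in 45.0% of all, CCAAT in 2 of the 9 and in 34.6% of all, and TATAAA in 1 of the 9 (COL6A2) and in 11.5% of all, with both strands searched. The windows of COL4A1 and COL4A2 overlap, so their CCAAT is the same site. Likewise the 1 GGGCGG of COL4A2 is also among the 2 of COL4A1. The 3 genes that were higher in sh61A spanned a wide range of base composition, from 51.3% G and C for LAMA4 and 56.3% for COL6A3 to 76.7% for COL4A1, and the 2 that were lower had 82.7% (LAMA5) and 79.0% (LAMC1). Genes that did not pass reached similar values, with 79.3% for COL6A2, 77.7% for COL4A2, 71.0% for LAMB1 and 58.7% for LAMB2. The median of all windows was 58.7%. A match in these letters is a description and does not show that a factor binds there.

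COL6A3 had 215, 237 and 284 CPM in sh61A libraries 1 to 3, against 56.1, 94.6 and 147 CPM in shcontrol libraries 1 to 3. The groups did not overlap, although the shcontrol libraries spread over 2.62 times from library 1 to library 3. The fold change was 2.47, or 1.30 ± 0.31 on the log2 scale (SE, 3 libraries a group), with an adjusted p of 0.0469 in edgeR. Leaving out shcontrol library 3 gave 1.70, which passed, and leaving out any of the other 5 libraries gave 1.01 to 1.39, which did not.

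COL6A1 and COL6A2, the shorter chains of the collagen VI trimer, did not pass the test. COL6A1 had 89.7, 69.6 and 118 CPM in sh61A, against 87.5, 86.2 and 115 CPM in shcontrol, with overlapping groups, a log2 fold change of -0.055 ± 0.25 (SE) and a 95% interval of -0.61 to 0.49. COL6A2 had 142, 165 and 152 CPM in sh61A, against 98.6, 92.8 and 121 CPM in shcontrol, a log2 fold change of 0.56 ± 0.22 (SE) with an interval of 0.086 to 1.03. The COL6A2 groups did not overlap and its own interval lay above 0, but its adjusted p over all features was 0.212 in edgeR.

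The ratio of COL6A3 to COL6A1 counts was 2.39, 3.41 and 2.40 in sh61A libraries 1 to 3, against 0.642, 1.10 and 1.28 in shcontrol libraries 1 to 3, a 2.79-fold higher ratio in sh61A. COL6A3 to COL6A2 was 1.44 to 1.87 in sh61A and 0.569 to 1.22 in shcontrol, a 1.79-fold higher ratio. COL6A2 to COL6A1 was 1.29 to 2.38 in sh61A and 1.06 to 1.13 in shcontrol, a 1.56-fold higher ratio with a pooled SD of 0.32 on the log2 scale. In none of these 3 ratios did the groups overlap. The 3 ratios share the same 3 genes and are not independent of each other. How often ratios of other gene pairs separate the groups was not computed, so nothing is read from this count. The summed collagen VI level was 491 ± 56.0 CPM in sh61A and 300 ± 74.0 CPM in shcontrol (SD, n = 3 each), without overlap. COL6A3 weighed most in that difference, with means of 245 CPM in sh61A and 99.4 CPM in shcontrol. The means were 153 and 104 CPM for COL6A2, and 92.5 and 96.1 CPM for COL6A1. The sum thus does not show a rise of every collagen VI gene. The summed collagen IV level was 178 ± 48.2 CPM in sh61A and 118 ± 25.6 CPM in shcontrol, with overlap.

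The shcontrol libraries differed in rank over these genes, by an amount that varied from gene to gene. The highest library had 1.10 times the level of the lowest in LAMC1 and 2.62 times in COL6A3. Library 3 had the highest CPM of its group in all 10 genes, whereas it was the highest of the 3 in 33.7% of all tested features. Library 1 was the lowest in 5 of the genes and library 2 in the other 5. In sh61A the highest library varied: library 2 in 5 genes, library 3 in 4 and library 1 in 1 (LAMB1). The coefficient of variation over the 10 genes had a median of 17.5% in sh61A and 14.9% in shcontrol, against 35.6% in sh61A and 32.6% in shcontrol over all tested features. Those for COL4A1 (46.9%) and COL6A3 (46.1%) in shcontrol stood above this, with library 3 the highest and library 1 the lowest in both genes. The tested features were not matched to the 10 genes for count level, so nothing is read from the lower medians of the 10 genes.

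The sign of LAMB1 and COL4A2, neither of which passed the test, turned with the scaling. When libraries were scaled by size alone, the median of all tested features moved to -0.30, and LAMB1 and COL4A2 then stood at -0.022 and -0.12 on the log2 scale. Relative to that median they stood at 0.28 and 0.18, close to their values with TMM. COL4A1 and COL6A3, at 1.36 and 0.97, no longer passed with library size alone, while LAMA4 (2.45), LAMA5 (-1.65) and LAMC1 (-1.37) did. LAMA4 was the only one of the 10 genes that passed under all 14 alternative settings.

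**Figure D4:**
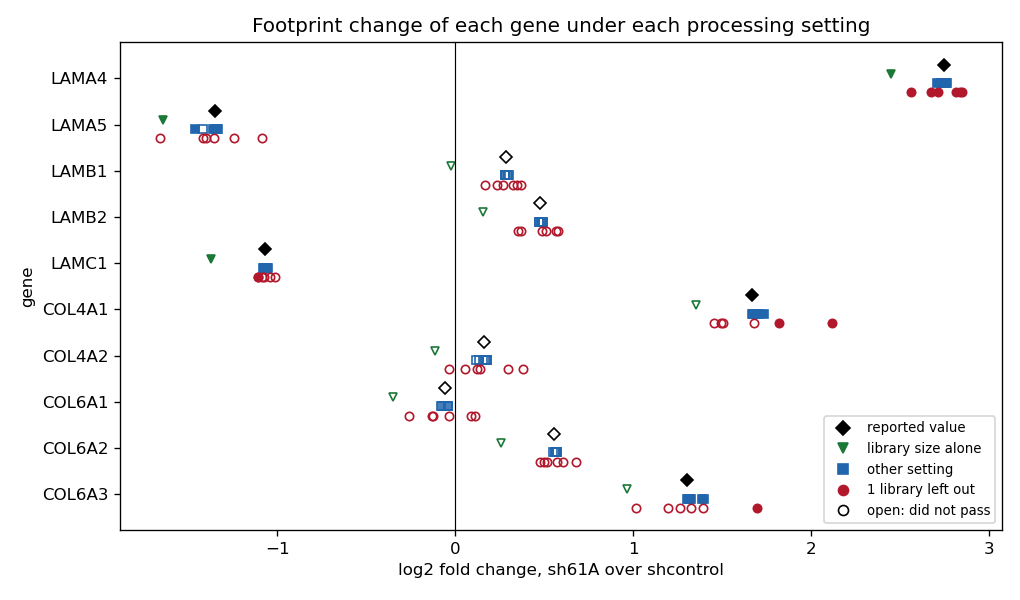
Log2 fold change of each gene, sh61A over shcontrol, as reported (diamond), with library size alone (triangle), under the 7 other settings (squares) and with 1 library left out (circles), where open symbols did not pass the adjusted threshold. LAMA4 stays between 2.45 and 2.85 with every symbol filled, while LAMA5 has only open circles, and LAMB1, LAMB2, COL4A2, COL6A1 and COL6A2 have only open symbols.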

How the data were processed

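Ribosome footprint libraries of WPMY-1 cells, 3 with a hairpin against TRMT61A and 3 with a control hairpin, were read from the deposited table of raw counts per Ensembl gene ID. RNase I digestion, isolation of monosomes on a sucrose gradient, ribosomal RNA depletion and gel selection of short footprints are described per the labels' protocols. No molecular identifier is described, so a count can include PCR copies. Reads were handled with fastp and with Bowtie 1.3.1 on hg38, per the submitters' processing notes. Not given in the sources used here are the counting tool, the annotation, the strand setting and the treatment of reads that match several genes. The gene IDs carry an extra suffix, a form used for annotation lifted between genome builds, while the processing notes name only hg38. Which build the counts rest on was not settled. RefSeq genes overlap 8 of the 10 genes, several of them antisense by name, and reads shared with these or between collagen chains cannot be told apart. Another 6 columns, labelled RNA, match no sample described here and were not used. The control columns, named for a vector, were matched through assay and replicate number.

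The gene symbols come with the list of IDs. The files and the RefSeq table do not pair the IDs with symbols, so other basement membrane genes, collagen-processing enzymes, receptors, cell type markers and TRMT61A were not analysed here. Levels per coding length were foreseen and not computed, for want of lengths. All 10 genes are named. The genes and lists were chosen with earlier results of these data known.

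The main test was edgeR 4.0.16 under R 4.3.3 (filterByExpr, TMM, glmQLFit and glmQLFTest, two-sided, no block) over all 6 libraries. Standard errors were derived from the log2 fold change and F. The script was tested on simulated data. Alternatives were DESeq2 1.42.0, limma 3.58.1 with voom, library size alone, upper quartile factors, no filter on low counts, at least 10 CPM in 3 libraries, removal of the 50 most abundant features, a replicate block, and the 6 fits that each omit a library.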

Additional observations from a re-analysis of the deposited data

How the results depend on the processing

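Of the 10 genes, LAMA4, LAMA5, LAMC1, COL4A1 and COL6A3 passed under DESeq2, upper quartile factors, no filter on low counts, at least 10 CPM in 3 libraries, limma voom and removal of the 50 most abundant features, which leaves the number of genes that passed at 5. It was 3 with library size alone and 1 to 3 when a library was left out, fits that have fewer samples. The number of features called over the whole table, 364 as reported, was 834 in DESeq2, 735 without a filter on low counts and 602 with at least 10 CPM in 3 libraries, and 47 to 171 with 1 library left out. The share of calls that were higher in sh61A was 47.5% as reported and 15.9% with library size alone. The replicate block left 208 calls and 4 of the 10 genes, with LAMA5 at -1.42 no longer past the threshold. The main fit has no block because the labels state no design that pairs the libraries. Deviations of same-numbered libraries from their group means correlated at -0.0017, -0.021 and 0.060, which does not settle whether single genes were paired. The sign turned in 3 genes that never passed: LAMB1 (-0.022) and COL4A2 (-0.12) with library size alone, COL4A2 without sh61A library 3 (-0.036), and COL6A1 without sh61A library 2 (0.11) and without shcontrol library 3 (0.088). With 1 library left out, COL4A2 ran from -0.036 to 0.38 and COL6A1 from -0.26 to 0.11. The causes were not tested. Chain ratios from summed counts and with 1 library left out moved by less than the spread between libraries. The smallest count of any of the 10 genes in a library was 50, for LAMA4 in shcontrol library 1.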
